A study of Saccharomyces cerevisiae with 24 samples.

Results

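The interior of chromosome V of budding yeast (Saccharomyces cerevisiae) was followed through a single S-phase as 466 bins of 1 kb, between positions 50001 and 526000 of the R64 assembly, so that both chromosome ends and 50 kb beside them were left out. These bins were 4.11% of the 11328 bins measured and 84.6% of those on the chromosome, and all of them had a ratio in all 22 tables. Another 10 bins of the stretch were absent. They lie from 444001 to 449000 and from 493001 to 498000, over the Ty1 retrotransposon genes YER138C and YER137C-A and over YER160C and YER159C-A. The chromosome was picked because its median change in replication time between the strains, over its whole length, was the smallest of the 16 chromosomes at -1.30 min. That change is therefore given below as a description, with no test.

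Copy number was measured by whole-genome sequencing of 2 haploid MATa strains of the W303 background. Both strains carry ade2-1, ura3-1, can1-100 and rad5-535, together with trp1-1, his3-11, 15 and leu2-3, 112. Both also lack SML1, whose product holds back ribonucleotide reductase. In the control, sml1Δ, the deletion is marked with URA3, and in sml1Δ SSDDCS with HphNT. SSDDCS stands for Sld2, Sld3, Dpb11, Dbf4, Cdc45 and Sld7, initiation factors driven in that strain from galactose-inducible GAL1-10 promoters placed in pairs at leu2, his3 and trp1. Cultures of both strains grown in raffinose were arrested in G1 with the mating pheromone alpha factor, given galactose, and released in galactose, so the control was exposed to the same sugar without the extra gene copies. There was 1 sample of each strain in G1 and 1 at each of 11 times after release (5, 10, 15, 20, 25, 30, 35, 40, 45, 50 and 60 min). With 1 library per strain and time there are no replicates, so no p-value is given, and a difference between strains cannot be told apart from a difference between 2 cultures.

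Yeast chromosomes are replicated from origins called autonomously replicating sequences (ARS), each licensed in G1 and fired at a characteristic time in S-phase. Forks move away from each origin and meet forks of the neighbouring origin in a termination zone. In a profile of replication time along a chromosome, origins that fire efficiently appear as early peaks and termination zones as late valleys. The over-expressed factors help to activate the helicase at licensed origins and are normally scarce. The comparison of the strains asks how an excess of them changes the order and the time in which the chromosome is copied.

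The replication time Trep of a bin is the time at which its copy number, as a sigmoid rising from 1 to 2, reached 1.5. Differences in Trep are given as SSDDCS minus sml1Δ, and negative values thus mark bins that were copied earlier in SSDDCS. Neighbouring bins scattered around each other by a robust SD of 2.46 min in this difference, and a single bin was called earlier or later beyond a limit of 4.83 min, the 95% range of a normal scatter of that SD. Single bins of SSDDCS scattered more than those of sml1Δ, at 2.06 against 1.22 min. Peaks, valleys and zones were therefore read from a moving average over 9 bins.

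Sequences are given here for the 6 origins on which the description below turns most. ARS514, ARS517 and ARS521 lie in 3 of the 5 zones that were earlier in SSDDCS by at least 3 min, and ARS512 borders on another. ARS510 marks a peak that passed the required prominence of 1 min in SSDDCS and not in sml1Δ, and ARS515 was the single origin with a later smoothed Trep in SSDDCS. All are from RefSeq on R64, plus strand, at chrV:287552-287629 (ARS514), chrV:406752-406953 (ARS517), chrV:520772-521030 (ARS521), chrV:212383-212631 (ARS512), chrV:145678-145840 (ARS510) and chrV:316600-316807 (ARS515). Capitals mark matches to the ARS consensus sequence, the 11-base motif bound by the origin recognition complex, searched on both strands. In ARS514 all 11 letters match and in the other 5 origins 10 of 11 do, and matches that overlap run together in 1 stretch of capitals.
ARS514: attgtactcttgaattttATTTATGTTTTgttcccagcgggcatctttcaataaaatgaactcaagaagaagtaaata
ARS517: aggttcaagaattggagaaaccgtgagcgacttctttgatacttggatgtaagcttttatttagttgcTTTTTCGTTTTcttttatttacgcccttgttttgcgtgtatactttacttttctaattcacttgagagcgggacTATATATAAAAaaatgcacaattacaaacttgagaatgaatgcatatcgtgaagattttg
ARS521: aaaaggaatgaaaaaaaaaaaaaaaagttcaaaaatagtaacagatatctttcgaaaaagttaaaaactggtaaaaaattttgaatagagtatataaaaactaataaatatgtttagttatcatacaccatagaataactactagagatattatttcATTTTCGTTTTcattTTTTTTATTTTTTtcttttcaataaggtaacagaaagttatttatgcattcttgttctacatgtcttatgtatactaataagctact
ARS512: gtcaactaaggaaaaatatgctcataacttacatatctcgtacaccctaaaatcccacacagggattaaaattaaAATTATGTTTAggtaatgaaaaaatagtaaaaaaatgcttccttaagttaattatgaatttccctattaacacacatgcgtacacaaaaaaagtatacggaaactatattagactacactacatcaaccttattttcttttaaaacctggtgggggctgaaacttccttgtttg
ARS510: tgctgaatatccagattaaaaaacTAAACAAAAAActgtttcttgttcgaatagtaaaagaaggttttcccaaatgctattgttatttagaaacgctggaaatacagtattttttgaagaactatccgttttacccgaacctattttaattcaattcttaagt
ARS515: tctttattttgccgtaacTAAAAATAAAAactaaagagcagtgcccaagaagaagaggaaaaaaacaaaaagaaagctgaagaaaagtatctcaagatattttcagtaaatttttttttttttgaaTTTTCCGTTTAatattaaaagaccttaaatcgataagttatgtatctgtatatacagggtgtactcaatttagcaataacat

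Of the 16 annotated origins of the interior, 4 hold an exact match to the consensus and all 16 hold a match of at least 10 letters. Among 1864 windows of 250 bases tiled over the same bins, 1.72% held an exact match and 24.6% a match of at least 10 letters. The looser match is therefore common outside origins too. The interior holds 3.36 annotated origins per 100 kb, against 2.70 in the interiors of the other 15 chromosomes, and its median bin lies 8.91 kb from an origin against 11.1 kb.

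The interior was replicated early in the control strain, and it was advanced less in SSDDCS than most of the genome. In sml1Δ its bins had a median of 21.7 min (quartiles 20.0 and 23.6), and in SSDDCS one of 21.0 min (quartiles 18.7 and 23.3), whereas the genome as a whole had 23.5 and 20.9 min. The median difference per bin was -1.12 min (quartiles -2.75 and 0.683), which is 1.26 min less advanced than the genome's -2.38 min. Among the 16 interiors that of chromosome V stood 14th in advance. Those of X (-1.09 min) and III (-0.931 min) were advanced by less, so the interior is not the least advanced of all, although the whole chromosome is. The interiors ranged down to -3.57 min on XIV. Chromosome V was the 3rd earliest interior in sml1Δ and the 9th in SSDDCS.

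**Figure D1:**
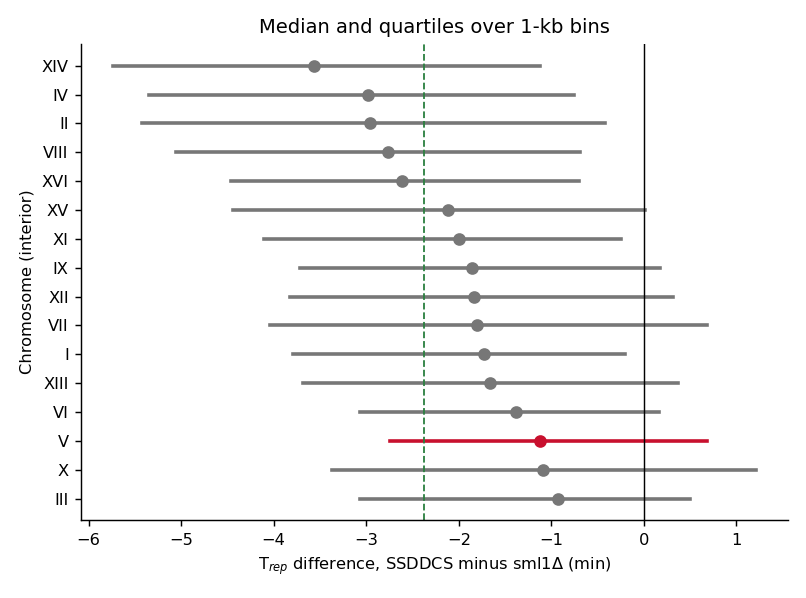
Median Trep difference (SSDDCS minus sml1Δ, in min; points) and quartiles (bars) over the 1-kb bins of each chromosome interior, ordered by median, with the genome median of -2.38 min as a dashed line. The interior of V (red) lies at -1.12 min, near X and III and far from XIV.

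The sign of the interior's difference rests on the flow cytometry. Each library's mean copy number was set by the authors from flow cytometry, and these factors moved the genome median from -2.38 min to -0.206 min when those of sml1Δ were used in both strains. The interior then had a median of 1.07 min, that is, later in SSDDCS. Its distance to the genome median stayed at 1.27 min. Directions below hold for the deposited factors. Any difference above -2.38 min, also a negative one, is a later time relative to the genome median.

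Relative copy number does not depend on these factors, since each library's interior mean is divided by that library's genome mean. In sml1Δ the interior stood at 0.991 after 15 min, 1.02 after 20 min, 1.07 after 25 min and 1.06 after 30 min, and returned to 0.999 by 60 min. In SSDDCS it stayed between 0.995 and 1.02 at all 11 times, with 1.004 at 20 and 25 min. From sml1Δ to SSDDCS the 25-min value dropped by 6.51%, the largest fall of the 16 interiors at that time. That of III dropped by 5.86% and that of X dropped by 5.05%, whereas that of XIV was 3.91% higher in SSDDCS. At 20 and 30 min the fall of V was not the largest. At 30 min III went from 1.079 to 1.031, against 1.061 to 1.015 in V. At 20 min VI went from 1.088 to 1.041, against 1.018 to 1.004 in V. The neighbour scatter of single interior bins was 3.56 to 5.49% of the mean in the sml1Δ libraries and 4.93 to 5.74% in the SSDDCS libraries.

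**Figure D2:**
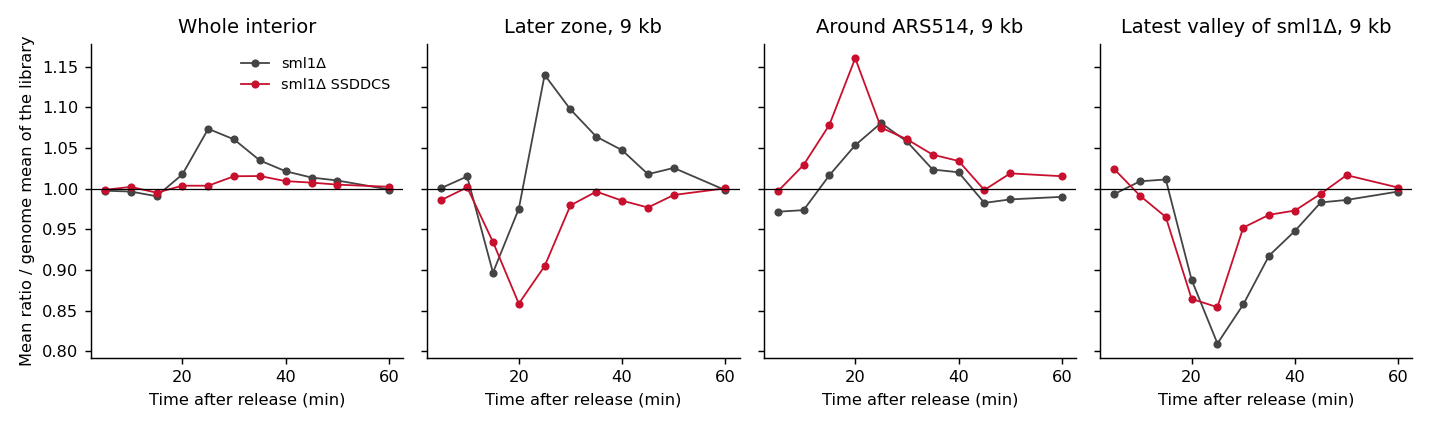
Mean ratio divided by the genome mean of the same library (no unit) against time after release (min), 1 library per point, for the whole interior and for 9-kb windows at the later zone, at ARS514 and at the latest valley of sml1Δ. The interior of sml1Δ rose to 1.07 at 25 min while that of SSDDCS stayed near 1, and in the later zone the strains stood at 1.14 and 0.905 at 25 min.

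The bins moved both ways. An earlier Trep in SSDDCS was found in 313 of 466 bins, or 67.2%, against a background of 76.6% over all bins of the genome. Beyond the limit of 4.83 min, 36 bins were earlier (7.73%, against a background of 23.9%) and 13 were later (2.79%, against 1.955%). Under other settings of the fit 3 to 98 of the 466 bins were earlier, against backgrounds of 10.8 to 46.2% of the genome's bins, and 0 to 38 were later. A genome share of later bins is not given for these settings. The shares of earlier and later bins are part of what the chromosome was picked for. At the edges of the interior the difference was -2.79 min in the first bin inside and -1.86 min in the bin before it, and -3.21 min in the last bin inside and -1.12 min in the bin after it. The 85 bins of the chromosome outside the interior had a median of -3.53 min.

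The change was uneven along the chromosome. Left of the centromere CEN5 the median over 101 bins was 0.35 min, with none of them earlier beyond the limit. Right of it the median over 363 bins was -1.48 min, and all 36 such bins lay there. Relative to the genome median these sides were later by 2.73 and 0.90 min. In 4 stretches of about equal length, from left to right, the medians were 0.23, -2.19, -0.65 and -1.23 min, or 2.61, 0.19, 1.73 and 1.16 min above the genome median. In sml1Δ the first stretch was the earliest, with a median Trep of 19.9 min, against 22.7 min in the next. In SSDDCS these medians were 20.0 and 20.6 min, so that most of the gap was gone.

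**Figure D3:**
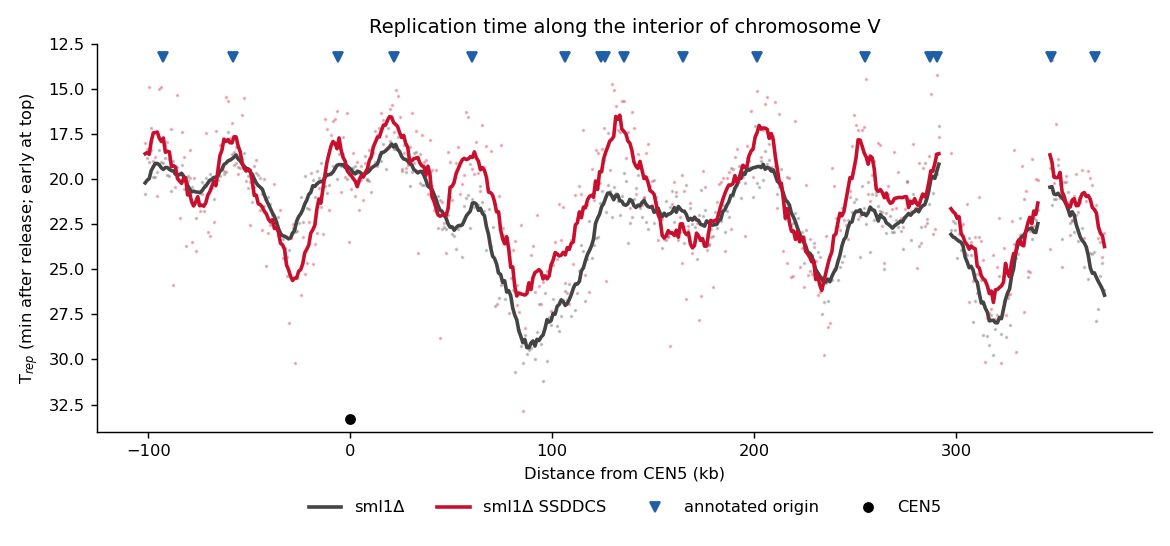
Trep (min after release, early at the top) along the interior by distance from CEN5 (kb), with single bins as points and the mean of 9 bins as a line for each strain, and annotated origins as triangles. With the deposited factors SSDDCS lies above sml1Δ at all 10 of its peaks, though with the sml1Δ factors at 3 of them, and it lies below sml1Δ in the later zone left of CEN5.

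The profile of sml1Δ had 9 early peaks and 8 late valleys with a prominence of at least 1 min. Its earliest peak, at 18.1 min, lay 1.28 kb from ARS511. Peaks near ARS508 (18.7 min), ARS507 (19.1 min), ARS519 (19.2 min) and ARS516 (19.2 min) came next. Those near ARS520, ARS513.7, ARS512 and ARS517 were later, between 20.4 and 21.5 min. The latest valley reached 29.4 min at 240001 to 241000, and the next, at 472001 to 473000, 28.0 min. All 9 peaks lay within 3.91 kb of an annotated origin, and no valley lay closer than 9.01 kb.

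SSDDCS had 10 peaks and 9 valleys. These counts depend on the settings, since a moving average over 5 bins gave 26 peaks and 25 valleys in SSDDCS, and a prominence of at least 2 min left 5 peaks and 4 valleys in sml1Δ. All 9 peaks of sml1Δ had a counterpart within 6 kb, and the other one lay 0.741 kb from ARS510, at 146001 to 147000. There the smoothed profile of sml1Δ, at 19.2 min, had a shallow minimum with a prominence under 1 min, and that of SSDDCS stood at 17.7 min. The valley with no counterpart, at 155001 to 156000 and 20.4 min, lay 3.45 kb right of the middle of CEN5. In the 2 bins that hold the centromere, the site of spindle attachment, sml1Δ had a Trep of 19.7 and 19.4 min. SSDDCS had one of 23.5 (fit SE 1.89) and 20.5 min there. The differences of 3.76 and 1.17 min lay below the limit of 4.83 min for a single bin. After smoothing the differences there were 0.291 and 0.308 min. At 25 min the 9 kb around the centromere had a relative copy number of 1.20 in sml1Δ, against 1.05 in SSDDCS.

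At the 10 peaks of SSDDCS the smoothed difference lay between -4.74 min (ARS514) and -0.584 min (ARS519), all earlier with the deposited factors, whereas with the sml1Δ factors in both strains 3 were earlier and 7 later. At its 9 valleys 6 were later and 3 earlier, between -1.33 and 2.63 min, with the sml1Δ factors all 9 were later, and with a scale fitted per bin 4 were later and 5 earlier. At the 8 valleys of sml1Δ 3 were later and 5 earlier, with a median of -0.748 min. Peaks had a median of 19.2 min in sml1Δ, against 17.7 min in SSDDCS, and valleys one of 23.1 against 23.8 min. By these medians, which come from different sets of extremes, peaks and valleys stood farther apart in SSDDCS. The profile as a whole did not widen. With the earliest 10% and the latest 10% of smoothed values set aside, sml1Δ spanned 6.94 min, against 6.97 min for SSDDCS. Over 16 flanks between a peak and the next valley in sml1Δ the median rise was 4.43 min, or 0.154 min per kb. Over 18 flanks in SSDDCS it was 7.08 min, or 0.25 min per kb. In the other 15 interiors the slopes were 0.217 min per kb (337 flanks) and 0.269 min per kb (444 flanks), so the flanks of chromosome V were flatter than these in sml1Δ. Measured over the 16 flanks of sml1Δ in both strains, the rise was larger in SSDDCS in 10. The slope was also steeper in SSDDCS with the sml1Δ factors in both strains, at 0.224 min per kb, and with a scale fitted per bin, at 0.242 against 0.136 min per kb. Extremes were read in each strain from its own profile, and the larger scatter of SSDDCS moves with this result. Its part in it was not tested. The peaks near ARS519 and ARS520 border on the absent bins, so their moving averages rest mostly on bins of 1 side. Their values, positions and flanks are less certain for this reason.

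**Figure D4:**
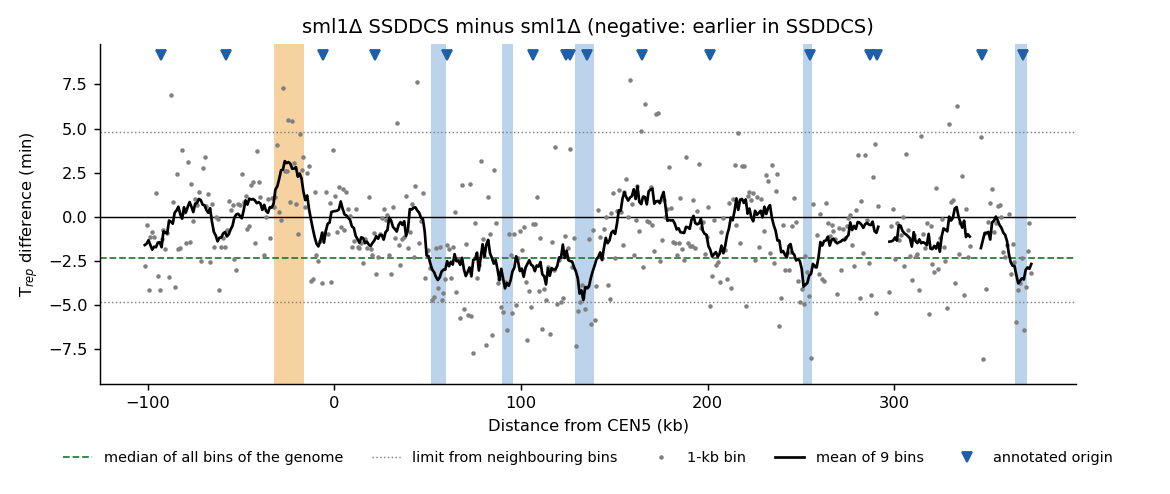
Trep difference (min) by distance from CEN5 (kb) for single bins (points) and as the mean of 9 bins (line), with the later zone in orange, the 5 earlier zones in blue, the limit of 4.83 min dotted and the genome median dashed. The smoothed difference reached 3.14 min in the later zone and -4.74 min in the zone of ARS514.

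By a rule of 5 or more bins in a row, 1 zone was later by at least 1 min after smoothing and 5 zones were earlier by at least 3 min. Other settings gave 2 to 9 later and 0 to 7 earlier zones. In the interior 7.08% of bins passed the first of these limits, against a background of 6.29%, and 10.7% passed the second, against 40.6%. The zones were found from the difference itself, so their sizes are given as descriptions.

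The later zone ran for 16 kb, from 120001 to 136000, left of CEN5, with no annotated origin in it. Its nearer edge lay 9.76 kb from ARS510. Trep rose from a mean of 21.9 min to 24.5 min, a mean difference of 2.68 min (neighbour SE 0.616, which treats bins as independent), and 14 of its 16 bins were later. Its mean copy number in sml1Δ over the times of 15, 20, 25 and 30 min was 1.04, 1.31, 1.81 and 1.94. In SSDDCS it was 1.19, 1.302, 1.505 and 1.76 at these times. With the deposited factors SSDDCS was thus ahead at 15 min, level at 20 min and behind from 25 min on. In a 9-kb window at its middle the relative copy number at 15, 20 and 25 min was 0.897, 0.975 and 1.14 in sml1Δ. In SSDDCS it was 0.934, 0.859 and 0.905, so relative to the genome SSDDCS was behind by 20 min. The zone holds 13 annotated genes from PXP1 to YNCE0009C, among them MMS21 (a SUMO ligase of the Smc5-Smc6 complex), EAF5 (NuA4 histone acetyltransferase), EDC3 (mRNA decapping), VAC8 (vacuole inheritance) and GLC3 (glycogen branching enzyme). It holds the valley between ARS508 and ARS510, which lay at 23.3 min in sml1Δ and, 2 kb farther right, at 25.6 min in SSDDCS. Its mean difference was 1.97 min with a scale fitted per bin and 4.25 min with the sml1Δ factors in both strains.

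The most advanced zone after smoothing, from 281001 to 291000, held ARS514 and 5 genes from THO1 to RRT13, among them ICL1 (isocitrate lyase of the glyoxylate cycle) and the serine tRNA gene SUP19. From sml1Δ to SSDDCS its mean Trep moved from 21.3 to 17.0 min, by -4.35 min (neighbour SE 0.779), and all 10 bins were earlier. In the 9 kb around ARS514 the copy number over 15, 20 and 25 min was 1.16, 1.44 and 1.73 in sml1Δ, and 1.38, 1.73 and 1.79 in SSDDCS. Relative to the genome sml1Δ stood at 1.05 and SSDDCS at 1.16 at 20 min, and both at 1.08 at 25 min. In sml1Δ the nearest peak lay 7.09 kb from ARS514, beside the weak origins ARS513.5 and ARS513.7, and in SSDDCS it lay 2.09 kb from ARS514. The smoothed profile of sml1Δ was nearly flat between these positions, with 20.8 min at its own peak and 21.2 min at that of SSDDCS. The peak of SSDDCS there, at 16.4 min, was its earliest in the interior.

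The zone from 403001 to 408000 held ARS517 and GLO3 (an ARF GTPase-activating protein), YCK3 (a casein kinase of the vacuole) and DSE1. Its mean difference was -4.57 min (neighbour SE 1.10). The peak there was read at 409001 in sml1Δ and at 403001 in SSDDCS, with ARS517 between these positions. The smoothed Trep of sml1Δ was 21.5 min at the first and 21.8 min at the second, so a shift of the peak is not resolved. From 204001 to 212000 a zone of 6 genes from YAT2 to MIG3, with GCD11 (translation initiation factor eIF2) and CHO1 (phosphatidylserine synthase), ended 0.507 kb before ARS512 and had a mean difference of -3.69 min (neighbour SE 0.871). From 517001 to 523000 lay ARS521 with DNF1 (a phospholipid flippase), BCK2 and CCA1 (tRNA nucleotidyltransferase), where the mean Trep moved from 25.5 to 21.0 min and by -4.45 min (neighbour SE 1.01). Within the interior ARS521 lay 21.4 kb from the nearest peak of sml1Δ and 22.4 kb from that of SSDDCS. It lies close to the right edge, and peaks beyond that edge were not listed.

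The zone from 242001 to 248000, with SPO73, SAP1 and CAJ1, had no origin, its nearer edge lying 10.3 kb from ARS513. It adjoins the latest valley of sml1Δ. Its mean moved from 29.1 min in sml1Δ to 25.1 min in SSDDCS, by -4.04 min (neighbour SE 1.01). At the valley itself the copy number of 9 kb over 20, 25 and 30 min was 1.21, 1.297 and 1.52 in sml1Δ, and 1.29, 1.42 and 1.71 in SSDDCS. Relative to the genome it was 0.888, 0.810 and 0.858 in sml1Δ, and 0.865, 0.854 and 0.952 in SSDDCS. This stretch thus lagged behind the genome in both strains, and by less in SSDDCS at 25 and 30 min. In SSDDCS the valley was read 6 kb farther left, at 26.5 min. The smoothed profile of SSDDCS was nearly flat there, between 26.3 and 26.5 min from 82.5 to 87.5 kb right of CEN5. The exact place of its valley is therefore not resolved. With the sml1Δ factors in both strains the means of all 5 earlier zones stayed negative, by 1.21 to 2.24 min. The zones were picked for a difference of at least 3 min, and these factors moved the genome median from -2.38 to -0.206 min. A negative sign was thus largely set by that choice. By the rule itself, 0 earlier zones were left with these factors.

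Each of the 16 origins was represented by the bin with its midpoint. In 14 of them, or 87.5%, that bin was earlier in SSDDCS, against a background of 87% of 324 origins, and after smoothing 15 were (background 93.7%). The sml1Δ factors in both strains left 8 earlier bins. The median smoothed difference was -1.82 min, against -2.74 min over all origins, and the median Trep of the origin bins in sml1Δ was 20.1 min against 21.3 min. The interior's origins were thus earlier in the control than all origins, by the median, and moved by less. The background of all origins includes those within 50 kb of chromosome ends, which the interior leaves out. No comparison with the origins of the other interiors alone is given.

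Beyond the limit for a single bin, 3 origins were earlier, or 18.8%, against a background of 30.6%. These were ARS520 (21.5 to 13.4 min, difference -8.07 min), ARS519 (19.7 to 14.2 min, -5.46 min) and ARS516 (20.2 to 15.1 min, -5.06 min). The SE of the fitted difference was 2.30 min at ARS520 and 2.31 min at ARS519, against 0.945 min at ARS516. The first 2 lie beside the absent bins over retrotransposons. After smoothing the 3 stood at -1.36, -0.930 and -1.89 min, so the single bins exceeded their surroundings.

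ARS514 (-4.07 min), ARS521 (-3.51 min) and ARS517 (-3.35 min) had the most negative smoothed differences, each in an earlier zone. ARS513 (-2.81 min), which overlaps HOM3 and PIC2, and ARS512 (-2.53 min), which overlaps SMB1, followed. ARS513.7, annotated as weak, had the same smoothed difference of -2.53 min, although its own bin was later by 3.81 min, less than the limit. The left arm origins ARS507 (-1.74 min), ARS508 (-1.13 min) and ARS510 (-0.916 min) moved by less than the genome median after smoothing, although the own bin of ARS510 stood at -3.80 min. ARS511, ARS513.5, ARS515, ARS516, ARS518, ARS519 and ARS520 lay above the genome median of -2.38 min after smoothing too.

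ARS515, which overlaps MRX1 and ICP55, stood apart from the other 15. Its bin moved from 19.8 to 24.6 min, a difference of 4.88 min (fit SE 1.16), and its smoothed difference was 0.709 min. The copy number of the 9 kb around it over 15, 20, 25 and 30 min was 1.15, 1.38, 1.72 and 1.897 in sml1Δ. In SSDDCS it was 1.299, 1.42, 1.60 and 1.75. Relative to the genome it fell from 1.07 in sml1Δ to 0.961 in SSDDCS at 25 min. Neither strain had a peak within 31 kb of it, and SSDDCS had a valley 4.80 kb away, at 23.8 min.

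Distance from an origin went with the difference in chromosome V. The median was -1.82 min in the 86 bins within 3 kb of an origin, -1.50 min from 3 to 8 kb, -0.659 min from 8 to 15 kb and -0.356 min in the 109 bins beyond 15 kb. In the other interiors these medians were -2.94, -2.43, -2.01 and -1.83 min. The interior was less advanced than the others in every class, and the gap between the medians lay between 0.93 and 1.478 min. The classes split the same differences by which the chromosome was picked, so a gap of this sign is partly built in. Neighbouring bins share forks and are not independent.

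**Figure D5:**
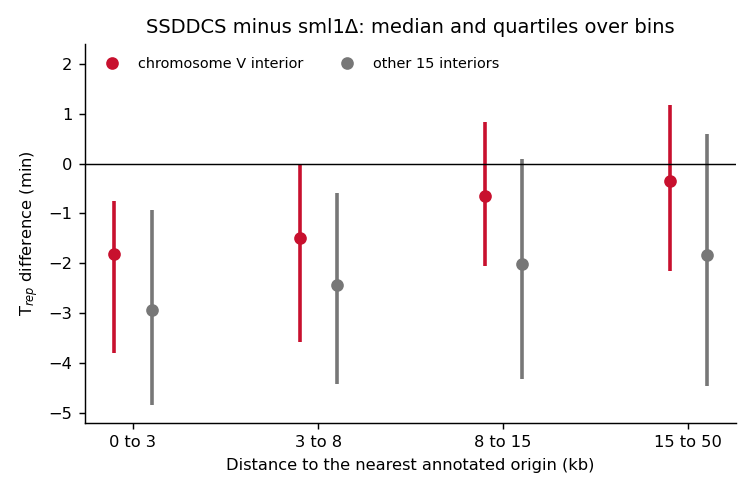
Median Trep difference (min; points) and quartiles (bars) over bins by distance to the nearest annotated origin (kb), for the interior of V and for the other 15 interiors. The median of V moves from -1.82 min within 3 kb to -0.356 min beyond 15 kb, and lies above that of the others in each class.

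Bins of like Trep in the control were compared as well. In sml1Δ 39.9% of the interior's bins replicated before 21 min and 15.9% at 25 min or later, against 24.6% and 35.6% in the other interiors. In classes of sml1Δ Trep from 17 to 33 min, bins of chromosome V were less advanced in 5 of 7 classes. Giving each bin of V the median of its class in the other interiors would set the interior at -1.905 min, whereas its own class medians, weighted alike, came to -1.09 min. These classes too split the differences by which the chromosome was picked, so a gap of this sign is partly built in. In the earliest class (17 to 19 min) V was advanced more, by -0.986 against -0.313 min in 40 and 532 bins. In the class from 29 to 33 min, with 13 bins of V, the medians were -5.04 and -4.11 min. The class is set by the sml1Δ value that also enters the difference, so noise in that value enters this comparison. The median sml1Δ Trep was 21.7 min in V and 23.5 min in the other interiors. A class thus lies at different places in the 2 sets, and the noise need not act alike in them. Its part was not tested.

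Of 15 genes for DNA replication, repair and chromosome biology chosen on chromosome V, 13 lie in the interior, and none had a mean difference beyond the 95% range of its neighbour SE. After smoothing 8 were earlier, against a background of 84.2% of smoothed bins. None was earlier by 3 min or more (background 40.6%), and 5 were later, 2 of them by at least 1 min (background 6.29%). Their median was -0.327 min. The later 2 were MMS21 (1.63 min) and EAF5 (1.93 min), both in the later zone. RAD23, of nucleotide excision repair, moved from a mean of 19.9 to 23.0 min in its 2 bins (3.09 min, neighbour SE 1.74), and by 0.656 min after smoothing. RTT105, a chaperone of replication protein A, and SWI4, the DNA-binding subunit of the G1/S factor SBF, had smoothed differences of 0.673 and 0.462 min.

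Earlier values were found for SLX8, of a SUMO-targeted ubiquitin ligase (-1.61 min), SCC4, of the cohesin loader (-1.26 min), and RNR1, the large subunit of ribonucleotide reductase (-1.15 min). MCM3, a subunit of the replicative helicase, stood at -0.914 min, and RAD4, of nucleotide excision repair, at -0.918 min. MAG1, a DNA glycosylase, had -0.671 min, GLC7, the catalytic subunit of protein phosphatase 1, -0.327 min, and CHD1, a chromatin remodeller, -0.318 min. The smoothed Trep of RNR1 moved from 21.5 to 20.3 min. URA3, on the left arm, differed by 0.998 min in its bin, and in sml1Δ its reads can also come from the marker at the deleted SML1.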

How the data were processed

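DNA from synchronised cultures was sequenced, 1 library per strain and time. The authors mapped reads with Bowtie2 (version 2.2.6) to the S288C genome, assembly R64, and took the reads with a unique place in each 1-kb bin. SAMtools and bedtools are also named in the submitters' processing notes. The deposited ratio is the reads of a bin at one time over those in G1 of the same strain, multiplied by a bulk factor that the authors derived from flow cytometry. The factor is deposited as a ratio too. The mean of each table lay within 0.00403 of its factor. The 2 G1 samples enter only as denominators. Reads of W303 were placed on another strain's reference.

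No read counts were given, so depth is unknown, and scatter between neighbouring bins stands in its place. Trep was fitted by least squares in all bins of the genome (numpy 2.4.6, pandas 2.3.3, scipy 1.17.1), and a bin needed, in each strain, 9 or more time points, a fit SE no greater than 5 min and a Trep of 5 to 60 min, which left 11302 bins. All 466 bins of the interior passed. The fit was tested on simulated data. Annotation and sequences are RefSeq's, on R64. Named loci were all annotated origins, CEN5, all peaks, valleys and zones with their first and last genes, and a list of replication and repair genes with URA3. A further gene of that list is not reported here. The members, lists and rules were chosen with earlier results of these data known.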

Additional observations from a re-analysis of the deposited data

How the results depend on the processing

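Of 92 values recomputed under other settings, 64 stayed close to the reported ones, 27 moved and 1 changed sign. A count was taken as close within a factor of 1.5, and a median within 0.280 min. The interior's median difference of -1.12 min became 1.07 min when the bulk factors of sml1Δ were applied to SSDDCS too, and -0.816 min without the 20 min libraries. Relative to the genome it was 1.54 min without those libraries and between 1.07 and 1.41 min under the 12 other settings. With those factors 38 bins were later and 7 earlier beyond the limit, 8 origins were earlier, 253 bins lay in 9 later zones and 0 bins in 0 earlier zones. A free upper plateau gave 8 later and 94 earlier bins, straight lines in place of the sigmoid 85 earlier bins, and ratios averaged over 5 bins 0 later and 3 earlier bins at the limit of the single bins. A scale fitted per bin and strain, chosen after seeing the data, gave 98 earlier bins, 2 later zones and 56 bins in earlier zones. Except for the averaged ratios, the limit was taken anew from the scatter of each fit, 2.89, 3.58 and 2.99 min for the free plateau, the straight lines and the scale per bin. At the limit of 4.83 min these gave 16, 31 and 18 earlier and 1, 6 and 0 later bins. A moving average over 5 bins gave 26 peaks and 25 valleys in SSDDCS, 29 bins in 3 later zones and 54 bins in earlier zones. One over 15 bins gave 2 later zones and 19 bins in 2 earlier zones. A prominence of 2 min left 5 peaks and 4 valleys in sml1Δ. The cause of the other changes was not tested. No paired analysis was possible because there was 1 sample of each kind, and no replicate could be left out. The noise of single bins and of the shared G1 libraries limits what can be said of 1 bin. The bulk factors limit the sign of any difference near the genome median of -2.38 min or between it and 0.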
